A study of Mus musculus with 9 samples.

Results

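Hox genes encode homeodomain transcription factors, and they were taken from the deposited table as every row whose symbol is Hoxa, Hoxb, Hoxc or Hoxd followed by a number. The rule found 38 of the 36256 genes in the table, and every one of them had at least 1 count in some mouse. A Hoxc13 row is not analysed here. The rule used gene names and no measured value, but it was chosen with earlier results of these data known. In the coordinates of the deposited table, whose build is not named, the Hoxa cluster of 11 members lay on the minus strand of chr6:52132570-52237788. The Hoxb cluster of 10 members lay on the plus strand of chr11:96085142-96259082. The Hoxc cluster of 8 members lay on the plus strand of chr15:102845192-102945278, and the Hoxd cluster of 9 members on the plus strand of chr2:74498654-74595486.

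In vertebrates the clusters are colinear with the body: genes at the 3′ end carry low paralogue numbers and are switched on early and towards the head, and genes at the 5′ end carry high numbers and mark the tail end. The pattern set in the embryo is partly kept by adult gut mesenchyme and epithelium, so that the hindgut is marked by paralogue 13. Hox proteins bind DNA with cofactors of the TALE class (the Pbx, Meis and Pknox homeodomain proteins). Their loci are opened by caudal-type Cdx factors and retinoic acid and held silent by Polycomb complexes.

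Poly(A) RNA from colon tissue of 9 C57BL/6 mice was sequenced, 3 mice in each of 3 groups. The LRWE group received dextran sulfate sodium (DSS), which damages the colon lining and serves as a model of ulcerative colitis, in a model of 9 days, together with an extract of Linderae Radix at 2.0 g/kg. The MC group received DSS with the same 9 days of modelling, and the NC group was the control. The colon segment taken, and the sex and age of the mice, are not given in the sources used here, and the extract without DSS was not analysed here. Values of a group are listed for its mice 1, 2 and 3 in that order.

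Libraries held 59042063 to 65042857 counts, and Hox genes together took 0.0448% to 0.0927% of them. Levels of 1 gene between mice are given as CPM, counts scaled to a common library size with TMM factors. Levels between genes are given as FPKM, the authors' unit, in which fragment numbers are divided by transcript length and depth. Differences are log2 fold changes ± SE from edgeR's quasi-likelihood test, called at a Benjamini-Hochberg adjusted p under 0.05 over 21767 tested genes, and 33 of the 38 members were tested. LRWE mouse 2 stood apart from the other 8 libraries: it had a count in 21218 genes, against 23238 to 26019 in the others. MC mouse 2 stood between the NC mice and the other MC mice in Hoxb6, Hoxb7, Hoxb8, Hoxb13 and Hoxd13, so results are also given without one or both of these libraries where that changes a call. The labels give colon tissue and name no sorting of cells, so fewer cells of a type and less RNA per cell cannot be told apart.

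The Hox genes with the highest level differed between the DSS-treated mice and the controls. In FPKM, Hoxb6 led in LRWE mice (54.3 ± 21.2, SD, n = 3), followed by Hoxb9 (22.4 ± 7.85) and Hoxb5 (19.5 ± 5.51). In MC mice Hoxa5 (35.0 ± 1.09 FPKM), Hoxb5 (28.3 ± 4.67 FPKM) and Hoxb6 (23.85 ± 18.3 FPKM) had the highest means. In NC mice the order was Hoxb13 (125 ± 24.6 FPKM), Hoxd13 (55.05 ± 11.5 FPKM) and Hoxa13 (25.9 ± 2.78 FPKM), the paralogue 13 genes of their clusters. Within the NC order Hoxb13 stood above Hoxd13 and Hoxd13 above Hoxa13 in each of the 3 mice, while Hoxa13 and Hoxa5 changed places in mouse 3. Mouse by mouse, Hoxb6 was the highest member in LRWE mice 1, 2 and 3 and in MC mouse 1, Hoxa5 in MC mice 2 and 3, and Hoxb13 in all 3 NC mice. Summed Hox FPKM was 229, 177 and 224 in LRWE mice, 257, 247 and 240.1 in MC mice, and 306, 358 and 282 in NC mice, so the 3 NC mice had the highest sums.

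**Figure D1:**
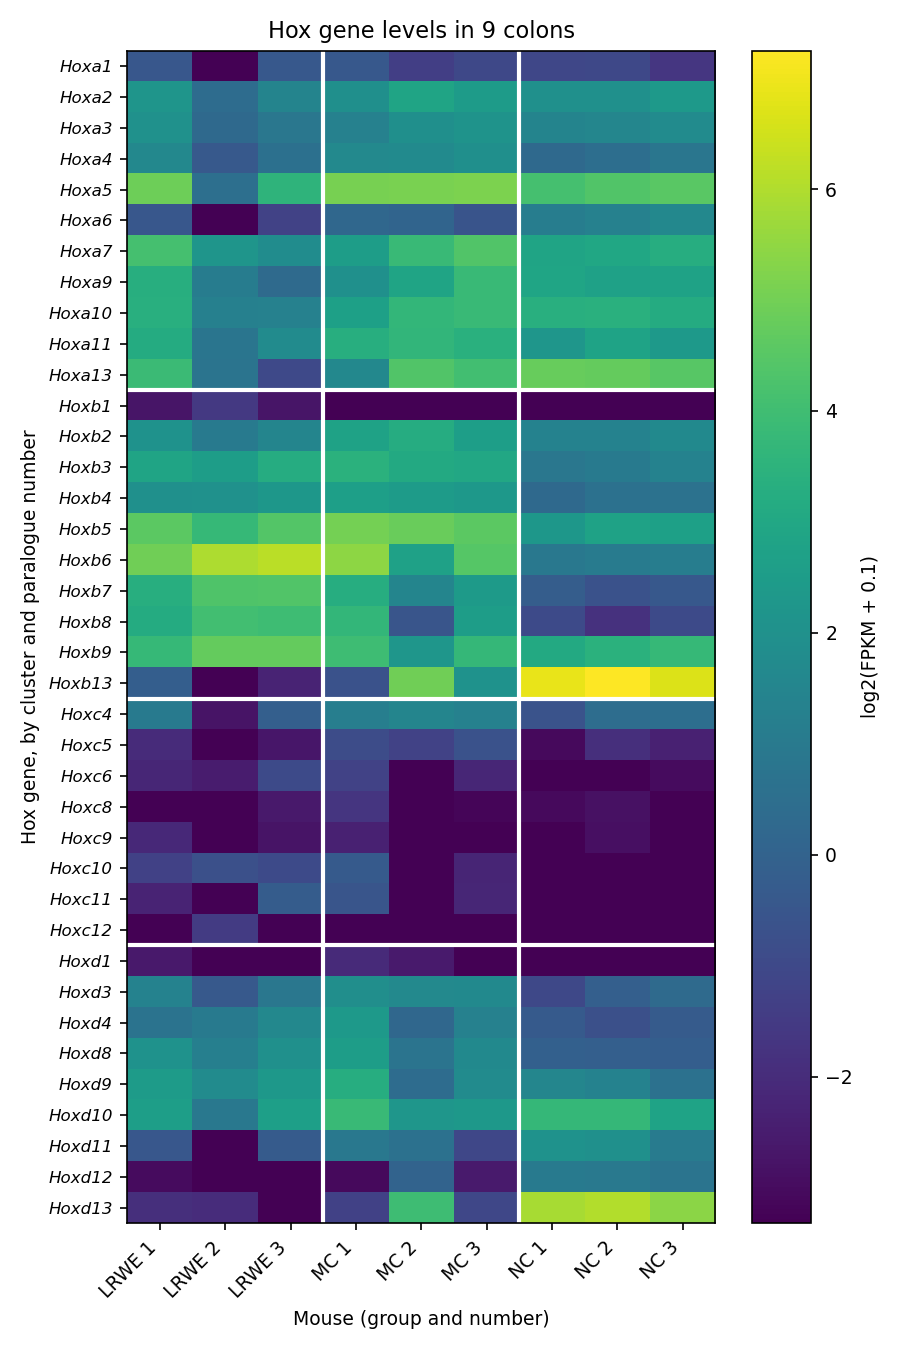
Level of each of the 38 Hox genes (rows, by cluster and paralogue number) in each mouse (columns, LRWE, MC, NC), as colour on a log2(FPKM + 0.1) scale. Hoxb13 and Hoxd13 are brightest in the 3 NC mice, and Hoxb6 is brightest in LRWE mice 2 and 3.

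Set out by paralogue number, the summed Hox FPKM came mostly from numbers 9 to 13 in NC mice and mostly from lower numbers in the other groups. Numbers 9 to 13 held 30.8%, 22.9% and 21.1% in LRWE mice, 25.8%, 45.6% and 33.9% in MC mice, and 83.6%, 83.8% and 76.4% in NC mice. The ranges of NC and of the other groups did not overlap, and MC mouse 2 was the nearest to NC. Paralogue 13 alone made up 6.83%, 0.966% and 0.226% in LRWE mice, 1.47%, 27.2% and 8.62% in MC mice, and 66.5%, 68.3% and 60.01% in NC mice. Numbers 6 to 8 held 31.3%, 58.9% and 51.5% in LRWE mice, 30.6%, 10.8% and 23.9% in MC mice, and 4.28%, 3.85% and 5.78% in NC mice. LRWE mice 2 and 3 had the largest shares of numbers 6 to 8, and all 6 DSS-treated mice lay above all 3 NC mice. The FPKM-weighted mean paralogue number put these shares on one scale, with 6.92, 6.76 and 6.49 in LRWE mice, 6.45, 7.92 and 6.96 in MC mice, and 11.1, 11.2 and 10.5 in NC mice. The ratio of Hoxb13 to Hoxb6 in CPM, the far and the middle part of the same cluster, was 0.0293, 0 and 0.00167 in LRWE mice, 0.0138, 5.29 and 0.207 in MC mice, and 73.4, 84.8 and 54.5 in NC mice. These are descriptions of each mouse, with no test.

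**Figure D2:**
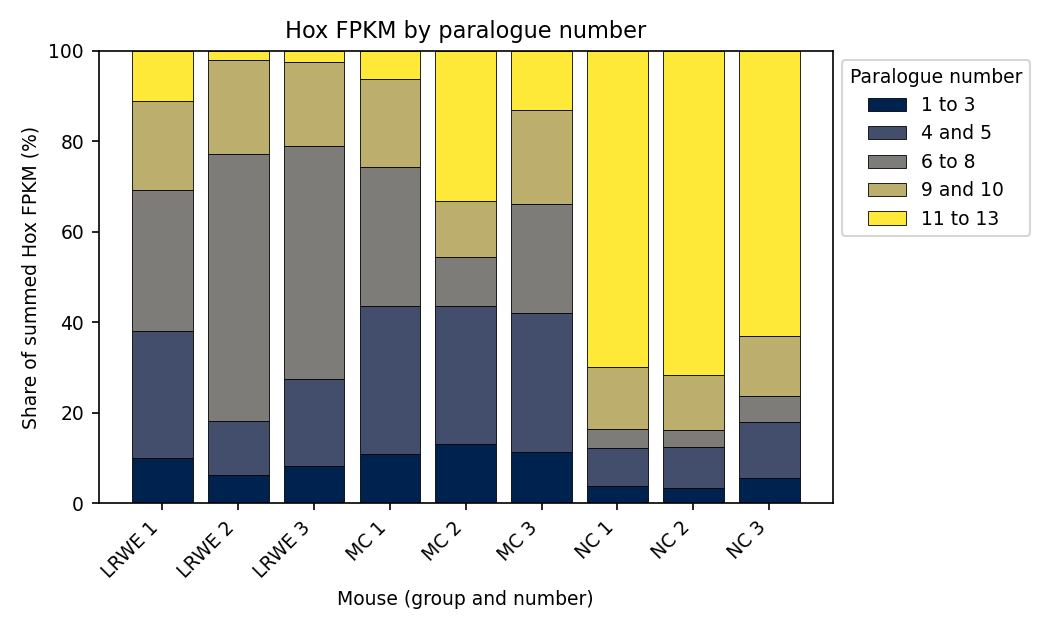
Share of the summed Hox FPKM (percent) in each mouse, stacked by paralogue number, with LRWE mice at the left, then MC and NC mice. Numbers 11 to 13 take 63.1% to 71.8% in NC mice, and 2.03% to 33.3% in the other 6 mice.

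The 4 clusters are described one by one, with no test. The mean paralogue number within Hoxb was 6.04, 6.58 and 6.37 in LRWE mice, 5.87, 7.38 and 6.03 in MC mice, and 11.96, 12.02 and 11.52 in NC mice. Within Hoxd it was 8.05, 7.67 and 7.93 in LRWE mice, 8.13, 10.6 and 7.50 in MC mice, and 12.1, 12.2 and 12.1 in NC mice. Within Hoxa the values lay closer together, with 7.61, 7.70 and 6.09 in LRWE mice, 6.64, 7.81 and 7.63 in MC mice, and 8.88, 8.72 and 8.14 in NC mice. Hoxb held 44.7% to 84.5% of the Hox FPKM in LRWE mice, 38.7% to 53.7% in MC mice and 45.7% to 49.7% in NC mice. Hoxc held at most 1.77% in any mouse, so its genes carried little of these sums.

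Against NC, MC mice had 9 Hox genes that rose and 0 that fell, of 33 tested. Over all 21767 tested genes 2.84% were called higher and 3.53% lower in this comparison. The 9 were Hoxb2, Hoxb3, Hoxb4, Hoxb5, Hoxb6, Hoxb7, Hoxb8, Hoxd3 and Hoxd8, with paralogue numbers 2 to 8 and none from Hoxa or Hoxc. The median log2 fold change of the tested members was 0.97, with 25 of 33 above 0, beside -0.0055 over all tested genes, and it was also 0.97 with Hoxc10 and Hoxc11 set at a floor of 3 counts over the NC group. An unadjusted p under 0.05 was reached by 15 of 33 members, beside 5280 of all tested genes (24.3%). The 2 groups did not overlap in CPM for 15 members higher and 6 lower in MC mice, beside 19.5% higher and 20.1% lower of all tested genes. Without MC mouse 2 the count was 12 (10 higher, 2 lower), and without LRWE mouse 3, which shares in the estimate of spread, it was 6. It was 4 without MC mouse 1 or MC mouse 3, and 3 without any one NC mouse. Calls over all genes moved too, from 1386 to 1100 without MC mouse 2 and to 1029 without LRWE mouse 3. They were 520 and 506 without MC mouse 1 and MC mouse 3, and 281, 308 and 476 without NC mouse 1, 2 and 3. In these fits 22813 to 23020 genes were tested.

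Hoxb2 to Hoxb8, the 3′ and central stretch of the Hoxb cluster, were all called higher in MC than in NC mice, and 6 of these 7 genes in LRWE than in NC mice. Hoxb5 takes part in forming the enteric nervous system. Hoxb5 had 68.3, 46.85 and 65.25 CPM in LRWE mice, 93.0, 70.3 and 71.75 CPM in MC mice, and 15.2, 19.4 and 18.8 CPM in NC mice. All 6 DSS-treated mice lay above all 3 NC mice. The log2 fold change of Hoxb5 was 2.14 ± 0.20 (adjusted p = 0.00224) for MC against NC, and 1.75 ± 0.20 (adjusted p = 0.00346) for LRWE against NC. Hoxb3 and Hoxb4 are anterior genes known for patterning the hindbrain, and Hoxb4 also for expanding blood stem cells. Hoxb3 had 31.0, 31.1 and 43.45 CPM in LRWE mice, 46.2, 32.5 and 37.35 CPM in MC mice, and 8.46, 8.765 and 11.5 CPM in NC mice. Hoxb4 had 10.1, 12.7 and 13.4 CPM in LRWE mice, 15.9, 12.5 and 13.8 CPM in MC mice, and 3.38, 3.84 and 4.14 CPM in NC mice. For both genes the LRWE and MC mice overlapped each other and lay above every NC mouse. Hoxb3 rose by 2.01 ± 0.22 (adjusted p = 0.00428) in MC and by 1.88 ± 0.22 (adjusted p = 0.00404) in LRWE mice against NC. Hoxb4 rose by 1.89 ± 0.22 (adjusted p = 0.00443) in MC and by 1.67 ± 0.21 (adjusted p = 0.00480) in LRWE mice against NC. The calls of Hoxb3, Hoxb4 and Hoxb5 against NC, in MC and in LRWE mice, passed in all 19 alternative settings tried.

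Hoxb6, Hoxb7 and Hoxb8, the central genes of the cluster, had the largest fold changes above 0 among the members called. Hoxb6 had 61.2, 151 and 156 CPM in LRWE mice, 85.5, 11.6 and 46.9 CPM in MC mice, and 4.11, 4.15 and 4.55 CPM in NC mice. The 3 NC mice lay within 4.11 to 4.55 CPM, and MC mouse 2 was the lowest DSS-treated mouse. Hoxb6 rose by 3.49 ± 0.66 (adjusted p = 0.0195) in MC mice and by 4.84 ± 0.70 (adjusted p = 0.00637) in LRWE mice, each against NC. Hoxb7 had 15.2, 39.5 and 35.3 CPM in LRWE mice, 15.04, 3.76 and 9.035 CPM in MC mice, and 1.39, 0.861 and 1.095 CPM in NC mice. Each LRWE mouse was above each MC mouse for Hoxb7, and each MC mouse above each NC mouse. Hoxb7 rose by 3.05 ± 0.55 (adjusted p = 0.0168) in MC mice and by 4.75 ± 0.59 (adjusted p = 0.00467) in LRWE mice against NC. Hoxb8 marks progenitors of blood and microglia in the mouse. Hoxb8 had 24.4, 54.7 and 45.4 CPM in LRWE mice, 34.3, 1.39 and 16.8 CPM in MC mice, and 1.29, 0.523 and 1.19 CPM in NC mice. MC mouse 2 lay just above the highest NC mouse, and the other 5 DSS-treated mice were far above both. Hoxb8 rose by 4.13 ± 0.97 (adjusted p = 0.0401) in MC mice and by 5.37 ± 1.02 (adjusted p = 0.0156) in LRWE mice against NC. Without MC mouse 2, the MC against NC differences were 3.96 for Hoxb6 (adjusted p = 0.00292), 3.44 for Hoxb7 (adjusted p = 0.00613) and 4.68 for Hoxb8 (adjusted p = 0.00329). Leaving out any one NC mouse lost the MC calls of Hoxb2, Hoxb6, Hoxb7 and Hoxb8, with adjusted p up to 0.157. The same held without MC mouse 1 or MC mouse 3 for Hoxb2, Hoxb6 and Hoxb8, and without LRWE mouse 3 for Hoxb8, whose MC call was also lost with limma on log2(FPKM + 1) values (adjusted p = 0.0787). The LRWE calls of Hoxb6 and Hoxb7 held in each alternative, and that of Hoxb8 was lost without any one NC mouse (adjusted p up to 0.0777).

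Hoxb2, which specifies hindbrain segments, was the one gene of this stretch that was called in MC and not in LRWE mice. Hoxb2 had 14.4, 8.44 and 10.45 CPM in LRWE mice, 23.4, 28.7 and 22.6 CPM in MC mice, and 10.1, 9.18 and 11.9 CPM in NC mice. The 3 MC mice lay above all 6 other mice, and the LRWE and NC mice overlapped. Hoxb2 rose by 1.26 ± 0.23 (adjusted p = 0.0186) in MC against NC. The difference was 0.09 ± 0.23 (adjusted p = 0.843) for LRWE against NC and -1.17 ± 0.23 (adjusted p = 0.164) for LRWE against MC. Hoxb9, next on the 5′ side, had 35.0, 87.3 and 77.0 CPM in LRWE mice, 40.4, 10.6 and 36.6 CPM in MC mice, and 24.9, 29.0 and 37.9 CPM in NC mice. Its groups overlapped between MC and NC, and LRWE mouse 1 overlapped with both. No comparison called Hoxb9, with adjusted p = 0.183 for LRWE and 0.951 for MC, each against NC, and 0.195 for LRWE against MC.

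The promoters of 3 members on either side of this contrast are shown from RefSeq (GRCm38.p6), each with 250 bases before and 50 after the annotated start and on the plus strand. Hoxb8 (chr11:96281655-96281954) and Hoxb4 (chr11:96318017-96318316) are genes that rose, and Hoxd13 (chr2:74667975-74668274) is a paralogue 13 gene that fell in LRWE mice. Capitals mark TTTATG or TTTACG, short sites of the kind bound by Cdx factors, on either strand.
Hoxb8: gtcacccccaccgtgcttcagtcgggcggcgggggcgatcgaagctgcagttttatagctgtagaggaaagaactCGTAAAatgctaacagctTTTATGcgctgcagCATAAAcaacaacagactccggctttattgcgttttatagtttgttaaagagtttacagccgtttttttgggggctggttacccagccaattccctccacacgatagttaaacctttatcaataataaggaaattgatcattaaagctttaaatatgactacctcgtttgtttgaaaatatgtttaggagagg
Hoxb4: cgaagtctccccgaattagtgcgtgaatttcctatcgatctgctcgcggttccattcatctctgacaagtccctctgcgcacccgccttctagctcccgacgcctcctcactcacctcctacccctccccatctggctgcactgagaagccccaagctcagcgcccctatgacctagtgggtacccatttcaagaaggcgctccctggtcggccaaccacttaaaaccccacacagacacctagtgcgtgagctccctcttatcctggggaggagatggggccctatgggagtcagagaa
Hoxd13: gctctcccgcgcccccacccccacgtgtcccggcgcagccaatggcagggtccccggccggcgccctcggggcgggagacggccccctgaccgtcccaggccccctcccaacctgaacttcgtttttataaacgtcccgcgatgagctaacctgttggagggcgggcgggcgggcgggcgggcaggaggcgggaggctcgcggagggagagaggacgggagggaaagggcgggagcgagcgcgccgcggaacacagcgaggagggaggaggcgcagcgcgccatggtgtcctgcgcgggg
The Hoxb8 window held 3 matches, starting at bases 76, 94 and 108, and the Hoxb4 and Hoxd13 windows held 0. Of the 22 members with a promoter in the table, 5 had a match, namely Hoxa7, Hoxb8, Hoxd3, Hoxd4 and Hoxd11, which is 5 of their 24 promoters (20.8%), beside 14.6% of all 32851 promoters of the same length. The 3 matches in the Hoxb8 window do not overlap each other, and a match is a description of the letters in the window.

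At the 5′ end, Hoxb13, Hoxd13 and Hoxd12 fell in LRWE mice against NC, and were low without a call in MC mice. Against NC, LRWE mice had 7 Hox genes that rose and 3 that fell, of 33 tested, beside 6.04% of all tested genes called higher and 3.97% called lower. The 7 were Hoxb3, Hoxb4, Hoxb5, Hoxb6, Hoxb7, Hoxb8 and Hoxd8. An unadjusted p under 0.05 was reached by 18 of 33 members, beside 5854 of all tested genes (26.9%). The median log2 fold change was 0.09 beside -0.05 over all tested genes. The 2 groups did not overlap for 11 tested members higher and 7 lower in LRWE mice, beside 16.6% higher and 20.5% lower of all tested genes. Without any one NC mouse the count of called members was 5, and without LRWE mouse 3 it was 6. Calls over all genes moved too, from 2179 to 534, 459 and 558 without NC mouse 1, 2 and 3. They were 1026 without LRWE mouse 3. LRWE against NC and MC against NC share the 3 NC mice, so the values of the 2 comparisons are not independent.

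Hoxb13 marks the distal hindgut and the prostate. Hoxb13 had 1.79, 0 and 0.260 CPM in LRWE mice, 1.18, 61.2 and 9.70 CPM in MC mice, and 301.5, 352 and 248 CPM in NC mice. Each NC mouse lay above each of the other 6 mice, of which MC mouse 2 was the highest, and LRWE mouse 2 had 0 counts. Hoxb13 fell by 8.76 ± 1.76 on the log2 scale in LRWE mice against NC (adjusted p = 0.0189). The difference was -3.64 ± 1.37 (adjusted p = 0.145) for MC against NC. Without MC mouse 2 it was -5.78 and still not called (adjusted p = 0.058), and 0 of 9 fits with 1 library left out called it. With LRWE mouse 2 and MC mouse 2 both left out, a setting chosen after seeing the data, it was -5.79 (adjusted p = 0.0132). The LRWE call of Hoxb13 was lost without any one NC mouse or without LRWE mouse 3 (adjusted p up to 0.0724).

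Hoxd13 patterns the digits, the genital tubercle and the anal region. Hoxd13 had 0.423, 0.480 and 0 CPM in LRWE mice, 0.799, 34.2 and 1.013 CPM in MC mice, and 165, 170.1 and 114.5 CPM in NC mice. MC mouse 2 stood between the NC mice and the other 5 DSS-treated mice, which had at most 1.013 CPM. Hoxd13 fell by 8.97 ± 1.80 on the log2 scale in LRWE mice against NC (adjusted p = 0.0189). The difference was -3.64 ± 1.37 (adjusted p = 0.145) for MC against NC, and without MC mouse 2 it was -7.36 (adjusted p = 0.00515). Hoxd12, its neighbour in the cluster, had 0.0651, 0 and 0 CPM in LRWE mice, 0.0614, 2.10 and 0.199 CPM in MC mice, and 5.47, 4.83 and 4.32 CPM in NC mice. In LRWE mice these were 4, 0 and 0 counts, so the fitted value rests on very few reads there. Hoxd12 fell by 7.65 ± 1.63 on the log2 scale in LRWE mice against NC (adjusted p = 0.0233). The difference was -2.62 ± 1.22 (adjusted p = 0.226) for MC against NC, and without MC mouse 2 it was -5.20 (adjusted p = 0.0399). The LRWE calls of Hoxd12 and Hoxd13 were lost without any one NC mouse or without LRWE mouse 3, and that of Hoxd12 also without LRWE mouse 2 (adjusted p up to 0.0749). With limma on log2(FPKM + 1) values, Hoxb13 (adjusted p = 0.0168), Hoxd13 (adjusted p = 0.0148) and Hoxd12 (adjusted p = 0.0162) passed the threshold in MC mice against NC. DESeq2 called 12 members higher and 0 lower in that comparison, beside 3754 of all 21767 genes, and left Hoxb13 uncalled (adjusted p = 0.119). It gave no adjusted p for Hoxd13, so the 0 lower does not cover that gene.

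Hoxa13, which acts with Hoxd13 in the hindgut, limb and urogenital tract, was not called in any comparison over all 9 libraries. Hoxa13 had 36.0, 4.73 and 1.07 CPM in LRWE mice, 7.16, 44.7 and 42.5 CPM in MC mice, and 77.25, 68.6 and 59.1 CPM in NC mice. Each NC mouse lay above each of the other 6 mice, but LRWE and MC mice were spread over 1.07 to 44.7 CPM. The difference was -1.12 ± 1.05 (adjusted p = 0.571) for MC against NC, -2.29 ± 1.09 (adjusted p = 0.214) for LRWE against NC and -1.17 ± 1.05 (adjusted p = 0.519) for LRWE against MC. Without LRWE mouse 1, the highest LRWE mouse, Hoxa13 passed the threshold in LRWE against NC, at -4.57 (adjusted p = 0.0236), and in LRWE against MC, at -3.45 (adjusted p = 0.0469).

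**Figure D3:**
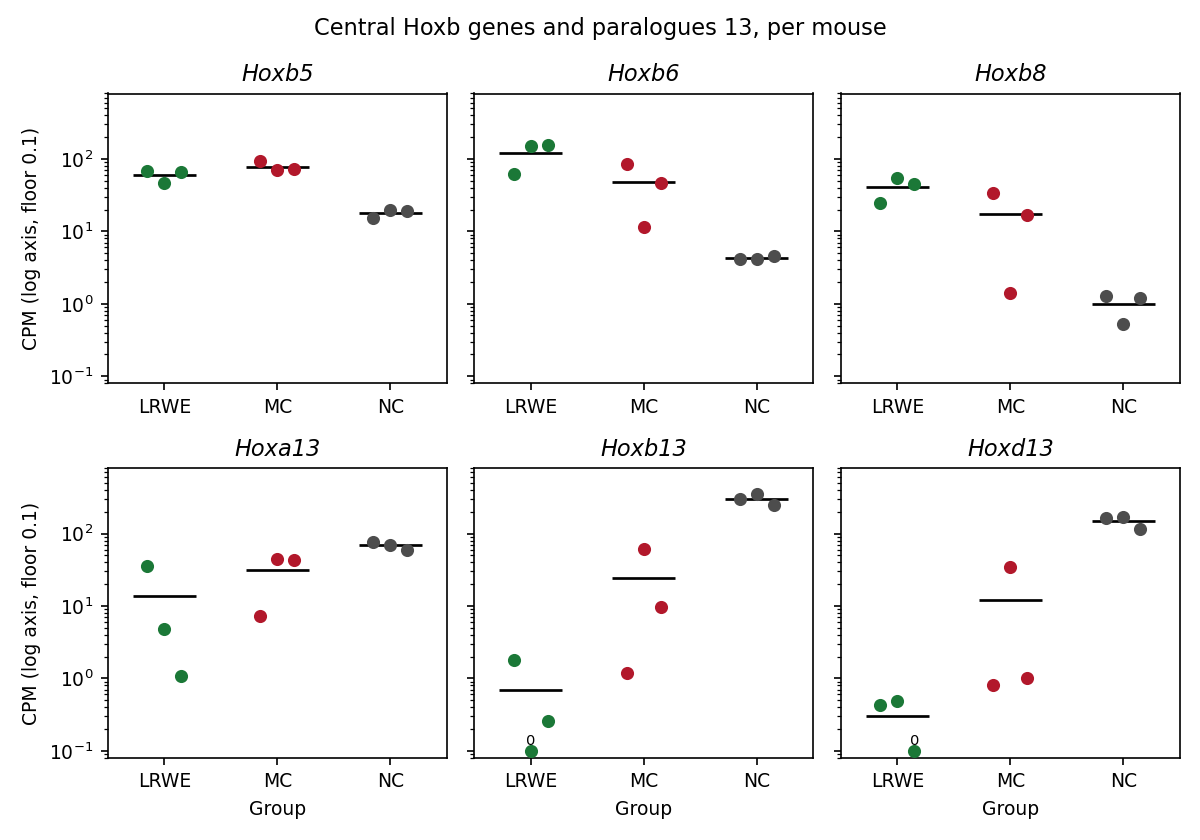
CPM in each mouse (points, log axis, values under 0.1 drawn at 0.1 and zeros marked 0) with the group mean (line) for 3 central Hoxb genes and the 3 paralogue 13 genes measured, by group (LRWE, MC, NC). Hoxb5 lies at 46.9 to 93.0 CPM in the 6 DSS-treated mice and at 15.2 to 19.4 CPM in NC mice, and Hoxb13 at 248 to 352 CPM in NC mice and at most 61.2 CPM in the others.

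Within Hoxd, the members called higher lay towards the 3′ side and those called lower at the 5′ end. Hoxd8 and Hoxd3 were the members called higher, and Hoxd3 is known for shaping the first neck vertebrae. Hoxd8 had 11.5, 7.76 and 11.7 CPM in LRWE mice, 16.3, 3.87 and 9.30 CPM in MC mice, and 2.68, 2.37 and 2.33 CPM in NC mice. Hoxd3 had 10.7, 3.55 and 7.94 CPM in LRWE mice, 15.6, 11.3 and 14.45 CPM in MC mice, and 1.88, 3.60 and 5.24 CPM in NC mice. All MC mice lay above all NC mice for both genes, and LRWE mouse 2 lay within the NC range for Hoxd3. Hoxd8 rose by 1.99 ± 0.47 (adjusted p = 0.0399) in MC mice and by 2.06 ± 0.47 (adjusted p = 0.0283) in LRWE mice against NC. Hoxd3 rose by 1.95 ± 0.47 (adjusted p = 0.0452) in MC mice, with 1.05 ± 0.46 (adjusted p = 0.184) for LRWE against NC. The MC call of Hoxd8 was lost without any one NC mouse, MC mouse 1, MC mouse 3 or LRWE mouse 3 (adjusted p up to 0.158). The call of Hoxd3 was lost in those cases and without MC mouse 2 (adjusted p up to 0.173), and also with library totals in place of TMM (adjusted p = 0.0530). With no filter on low counts the MC calls of Hoxd8 (adjusted p = 0.0569) and Hoxd3 (adjusted p = 0.0679) were lost, and the LRWE call of Hoxd8 without any one NC mouse or LRWE mouse 3 (adjusted p up to 0.120). Hoxd10, which specifies lumbar motor neurons, had 10.98, 4.10 and 12.2 CPM in LRWE mice, 26.1, 7.47 and 9.72 CPM in MC mice, and 27.2, 24.65 and 13.4 CPM in NC mice. The MC mice overlapped with both other groups, all LRWE mice lay below all NC mice, and the differences were -0.59 ± 0.55 (adjusted p = 0.568) for MC against NC, -1.26 ± 0.56 (adjusted p = 0.186) for LRWE against NC and -0.67 ± 0.55 (adjusted p = 0.482) for LRWE against MC. Hoxd11 averaged 2.05 ± 1.81 CPM in LRWE, 4.94 ± 2.97 CPM in MC and 15.4 ± 5.72 CPM in NC mice (SD, n = 3 each) without a call. Hoxd4 averaged 7.20 ± 2.605 CPM in LRWE, 8.61 ± 6.28 CPM in MC and 2.085 ± 0.449 CPM in NC mice, and Hoxd9 10.8 ± 1.58 CPM in LRWE, 10.25 ± 9.395 CPM in MC and 5.23 ± 1.83 CPM in NC mice, neither with a call.

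**Figure D4:**
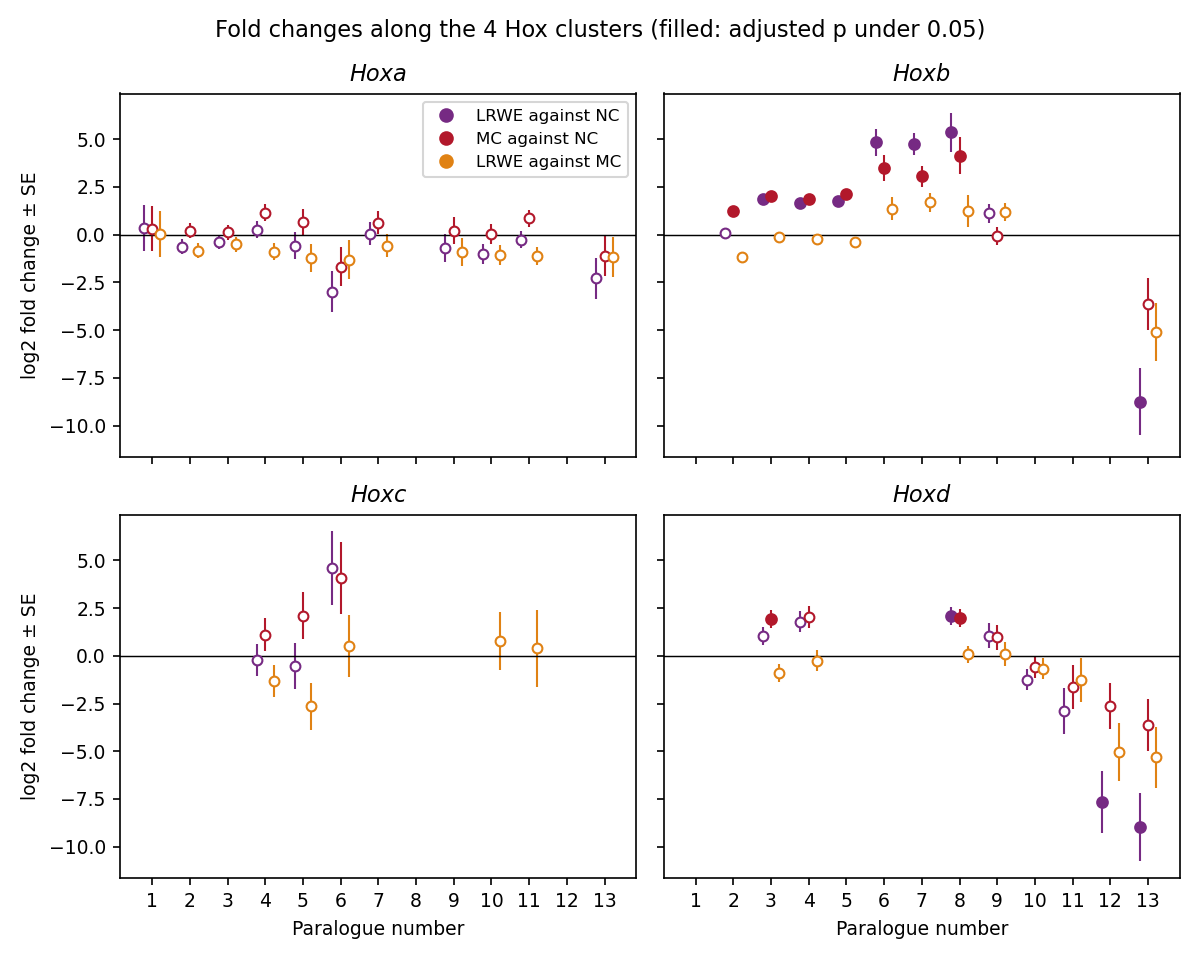
Log2 fold change ± SE of the tested Hox genes against paralogue number in each cluster, for LRWE against NC, MC against NC and LRWE against MC, with filled points called at adjusted p under 0.05. Hoxc10 and Hoxc11 against NC are left out because NC mice had 0 counts; in Hoxb the called genes 3 to 8 lie above 0 and Hoxb13 at -8.76 in LRWE against NC.

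None of the 11 Hoxa genes was called in a comparison over all 9 libraries, and the lowest adjusted p was 0.109 for LRWE and 0.157 for MC, each against NC, and 0.190 for LRWE against MC. At an unadjusted p under 0.05 there was 1 of the 11 genes in each comparison, beside 26.9% of all tested genes for LRWE and 24.3% for MC, each against NC, and 23.6% for LRWE against MC. Hoxa5, a regulator of lung and foregut development, had the highest FPKM of the cluster averaged over all 9 mice, while in NC mice Hoxa13 was higher. Hoxa5 had 57.0, 3.23 and 24.3 CPM in LRWE mice, 64.8, 58.05 and 73.9 CPM in MC mice, and 37.9, 40.6 and 47.2 CPM in NC mice. Every MC mouse was above every NC mouse, and LRWE mice ranged from below to above the NC mice, with LRWE mouse 2 lowest. The differences were 0.65 ± 0.71 (adjusted p = 0.640) for MC against NC, -0.57 ± 0.71 (adjusted p = 0.666) for LRWE against NC and -1.22 ± 0.72 (adjusted p = 0.326) for LRWE against MC. A fit of MC and NC mice alone called Hoxa5 at 0.65 (adjusted p = 0.0243). Hoxa6 had 0.569, 0 and 0.325 CPM in LRWE mice, 0.922, 0.765 and 0.548 CPM in MC mice, and 2.16, 2.20 and 2.78 CPM in NC mice, and no MC or LRWE mouse reached the lowest NC mouse. Hoxa4 had 4.75, 1.37 and 2.502 CPM in LRWE mice, 4.87, 4.66 and 6.44 CPM in MC mice, and 2.09, 2.20 and 2.87 CPM in NC mice, and each MC mouse was above each NC mouse. LRWE mouse 2 was the lowest of the 9 mice for 7 of the 11 Hoxa genes.

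Hoxc genes were at low levels everywhere, and none was called. Hoxc4, the highest of them, had 4.98, 0.166 and 2.355 CPM in LRWE mice, 5.68, 6.29 and 6.76 CPM in MC mice, and 1.62, 3.43 and 3.67 CPM in NC mice. All MC mice lay above the other 6 mice, and LRWE mice overlapped with NC mice. The differences of Hoxc4 were 1.10 ± 0.86 (adjusted p = 0.482) for MC against NC, -0.22 ± 0.85 (adjusted p = 0.905) for LRWE against NC and -1.32 ± 0.86 (adjusted p = 0.370) for LRWE against MC. Hoxc10 had 38, 66 and 56 counts in LRWE mice, 88, 0 and 15 counts in MC mice, and 0 in each NC mouse. Set against a floor of 3 counts over the NC group, Hoxc10 was at least 55.8-fold higher in LRWE mice (adjusted p = 0.0630) and at least 32.3-fold higher in MC mice (adjusted p = 0.0919). Hoxc11, its neighbour, had 14, 0 and 104 counts in LRWE mice, 78, 0 and 16 in MC mice, and 0 in each NC mouse, at least 41.2-fold higher in LRWE mice (adjusted p = 0.147) and at least 29.5-fold higher in MC mice (adjusted p = 0.180). MC mouse 2 had 0 counts of both genes, as the NC mice did. Without it, Hoxc10 passed the threshold in LRWE mice (adjusted p = 0.0144) and in MC mice (adjusted p = 0.0282) against NC, and DESeq2 called it in both (adjusted p = 0.00101 for LRWE and 0.00357 for MC). Hoxc5 averaged 0.217 ± 0.2285 CPM in LRWE, 1.38 ± 0.440 CPM in MC and 0.319 ± 0.242 CPM in NC mice, and Hoxc6 averaged 0.561 ± 0.501 CPM in LRWE, 0.393 ± 0.408 CPM in MC and 0.0212 ± 0.03665 CPM in NC mice.

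The 5 members that did not pass the filter on low counts were Hoxb1, Hoxc8, Hoxc9, Hoxc12 and Hoxd1. They had 54, 68, 50, 18 and 35 counts in all 9 libraries together. Hoxb1 had 8, 38 and 8 counts in LRWE mice and 0 in every MC and NC mouse, and the 18 counts of Hoxc12 were all in LRWE mouse 2. Against a floor of 3 counts over the group at 0, Hoxb1 was at least 20.03-fold higher in LRWE than in MC mice and at least 18.9-fold higher in LRWE than in NC mice, with LRWE mouse 2 holding 38 of its 54 counts. In edgeR's test with no filter, over 34101 genes, the adjusted p of Hoxb1 was 0.280 in LRWE against MC mice and 0.151 in LRWE against NC mice. None of the 5 was called there in any comparison, at a lowest adjusted p of 0.151.

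No Hox gene was called between LRWE and MC mice, of 33 tested, beside 0% of all tested genes called higher and 0% called lower. In edgeR's test 7 members had an unadjusted p under 0.05, beside 5139 of all genes (23.6%), and DESeq2 called 3 members and 2178 genes. The median log2 fold change of the members was -0.67, beside -0.03 over all genes. The groups did not overlap for 1 tested member higher (Hoxb7) and 8 lower in LRWE mice, beside 14.3% and 14.1% of all tested genes. Hoxb13 had a difference of -5.12 ± 1.52, Hoxd13 of -5.33 ± 1.59 and Hoxd12 of -5.03 ± 1.52, all with adjusted p = 0.164. Hoxb7 had a difference of 1.69 ± 0.51 (adjusted p = 0.164), Hoxb6 of 1.35 ± 0.61 (adjusted p = 0.216) and Hoxb8 of 1.25 ± 0.85 (adjusted p = 0.388). Hoxb3, Hoxb4 and Hoxb5 lay closer to 0, at -0.14 ± 0.21 (adjusted p = 0.720), -0.22 ± 0.21 (adjusted p = 0.546) and -0.38 ± 0.19 (adjusted p = 0.255). Hoxd8 was at 0.07 ± 0.45 (adjusted p = 0.942) and Hoxd3 at -0.90 ± 0.46 (adjusted p = 0.264). Without LRWE mouse 1 the test called 6 members, 1 higher and 5 lower, beside 2436 of all 23015 genes then tested. Among the 6 were Hoxb7 at 2.01 (adjusted p = 0.0426) and Hoxb13 at -7.45 (adjusted p = 0.0460). DESeq2 called Hoxb7 at 1.66 (adjusted p = 0.0269), Hoxb2 at -1.20 (adjusted p = 0.000875) and Hoxb13 at -5.157 (adjusted p = 0.0306).

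Many Hox rows share bases with other rows of the table. Of the 38 members, 23 overlapped another row, 14 of them on the opposite strand and 15 on the same strand, and the sources used here do not give the strand used in counting. Hoxb5 and Hoxb6 lay wholly inside the antisense gene Hoxb5os, which averaged 3.80 ± 0.2245 CPM in LRWE, 5.21 ± 1.899 CPM in MC and 7.24 ± 1.496 CPM in NC mice. Hoxb5os had its highest mean in NC mice, where Hoxb5 and Hoxb6 were lowest. Hoxd8 lay wholly inside the antisense gene Hoxd3os1, and Hoxb2 wholly inside the antisense gene Hoxb3os. Hoxd3os1 averaged 1.73 ± 0.677 CPM in LRWE, 2.05 ± 1.4 CPM in MC and 0.464 ± 0.295 CPM in NC mice. Hoxb3os averaged 6.39 ± 2.79 CPM in LRWE, 6.84 ± 1.22 CPM in MC and 4.55 ± 0.878 CPM in NC mice. Both had their lowest mean in NC mice, as Hoxd8 and Hoxb2 did. Hoxa3 overlapped Hoxa4, Hoxa5 and Hoxa6, Hoxd3 overlapped Hoxd4, and Hoxc5 overlapped Hoxc6, Hoxc8, Hoxc9 and Hoxc10, so reads in these stretches could be split between genes and their levels are uncertain to that extent. Hoxb7, Hoxb8, Hoxb13, Hoxd12 and Hoxd13 overlapped no other row. In the spans of the 4 clusters there were 41 rows that are not Hox genes, 26 of them tested. None was called in any comparison with edgeR, at a lowest adjusted p of 0.0621 for LRWE and 0.105 for MC, each against NC, and 0.176 for LRWE against MC. Over all tested genes 6.04% were called higher and 3.97% lower in LRWE against NC, and 2.84% and 3.53% in MC against NC. In LRWE against MC 0% were called. With so few rows, a count of 0 is little different from these shares. Hoxa11os, the antisense RNA of Hoxa11, averaged 46.5 ± 51.1 CPM in LRWE, 112 ± 76.7 CPM in MC and 231 ± 20.1 CPM in NC mice. Hoxa11 itself, a gene of the forelimb and uterus, averaged 11.3 ± 8.365 CPM in LRWE, 24.6 ± 1.62 CPM in MC and 13.7 ± 2.335 CPM in NC mice. Gm11538, a long non-coding RNA row of the Hoxb span, had 1.85, 0 and 0.260 CPM in LRWE mice, 0.123, 5.15 and 2.77 CPM in MC mice, and 26.3, 34.9 and 20.0 CPM in NC mice, low where Hoxb13 was low.

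Among the called genes of the 4 lists of factors that act with or on Hox genes, Cdx2 had the largest log2 fold change. Cdx2, the caudal-type factor that sets intestinal identity, had 235, 395 and 309 CPM in LRWE mice, 166, 38.2 and 192 CPM in MC mice, and 18.9, 30.1 and 21.2 CPM in NC mice. Each of the 6 DSS-treated mice lay above each NC mouse, with MC mouse 2 the lowest of them, as for Hoxb6 and Hoxb8. Cdx2 rose by 2.496 ± 0.53 (adjusted p = 0.0277) in MC mice and by 3.74 ± 0.55 (adjusted p = 0.00664) in LRWE mice against NC. Cdx1 had 217, 387 and 279 CPM in LRWE mice, 165, 69.95 and 172 CPM in MC mice, and 185, 183.5 and 175 CPM in NC mice and was not called. Of 6 ParaHox and caudal factors listed, 2 were tested, and Cdx2 was the one called. Of the 9 TALE cofactors, all tested, Pbx2 rose in LRWE against NC (0.71 ± 0.16, adjusted p = 0.0303) and none was called in MC against NC. Of 12 tested retinoic acid genes, the receptor gene Rarg rose by 0.86 ± 0.17 (adjusted p = 0.0210) in MC and by 0.87 ± 0.17 (adjusted p = 0.0164) in LRWE mice. Aldh1a1, an enzyme that makes retinoic acid, rose by 3.21 ± 0.66 (adjusted p = 0.0210) in LRWE mice against NC. Of 18 Polycomb and trithorax genes, all tested, 2 were called, both higher in LRWE against NC: Suz12, a Polycomb subunit, at 0.68 ± 0.16 (adjusted p = 0.0288) and Kdm6b, a demethylase of the Polycomb mark, at 0.69 ± 0.16 (adjusted p = 0.0305). Beside these counts, 6.04% of all tested genes were called higher in LRWE and 2.84% in MC mice, each against NC. None of the genes on these 4 lists was called in LRWE against MC, where 0% of all tested genes were called.

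Cell type markers of the tissue moved in some of the same mice. The labelled colon had 10 of 10 epithelial and 10 of 10 smooth muscle markers tested, none at 0 in all mice. The 6 markers of small intestine and caecum, which included Fabp2 and Alpi of absorptive cells, summed to 399, 632 and 545 CPM in LRWE mice, 343, 23.8 and 489 CPM in MC mice, and 15.1, 15.4 and 24.1 CPM in NC mice. Fabp2 and Alpi made up most of these sums. Of the other 4 markers, none was called, Fabp6 had at most 2.90 CPM, Lct at most 1.06 CPM, Apoa4 at most 0.809 CPM and Sis at most 17.35 CPM in any mouse. MC mouse 2 lay in the NC range, and Alpi and Fabp2 rose in both MC and LRWE mice against NC. Alpi rose by 5.30 ± 1.11 (adjusted p = 0.0271) in MC and by 6.12 ± 1.15 (adjusted p = 0.0148) in LRWE mice. Fabp2 rose by 3.84 ± 0.86 (adjusted p = 0.0347) in MC and by 4.72 ± 0.90 (adjusted p = 0.0157) in LRWE mice. Fibroblast markers, 10 of 10 tested, summed to 296 to 926 CPM in LRWE, 949 to 2307 CPM in MC and 1437 to 2060.0 CPM in NC mice, and smooth muscle markers to 2942 to 7700.2 CPM in LRWE, 7659 to 13495 CPM in MC and 9664 to 14186 CPM in NC mice. Enteric neuron and glia markers, 10 of 10 tested, summed to 89.7 to 673 CPM in LRWE, 885 to 1273 CPM in MC and 225 to 307 CPM in NC mice. Among them Gfap was called, rising by 4.29 ± 0.51 (adjusted p = 0.00461) in MC and by 1.94 ± 0.47 (adjusted p = 0.0346) in LRWE mice against NC. LRWE mouse 2 was the lowest of the LRWE mice for fibroblast, smooth muscle and neuron markers, as it was for Hoxa5. Epithelial markers summed to 10467 to 15799.6 CPM in LRWE, 5426 to 10219 CPM in MC and 7549.6 to 10223 CPM in NC mice. B and plasma cell markers, 6 of 6 tested, summed to 153 to 182 CPM in LRWE, 113 to 232 CPM in MC and 317 to 776 CPM in NC mice, and macrophage markers, 6 of 6 tested, to 34.6 to 80.5 CPM in LRWE, 57.5 to 114 CPM in MC and 116 to 155 CPM in NC mice. The plasma cell marker Jchain differed by -3.88 ± 0.60 (adjusted p = 0.00995) in MC and by -3.73 ± 0.59 (adjusted p = 0.00862) in LRWE mice against NC. Other markers were called in LRWE against NC alone. Epithelial Krt20 and the fat cell marker Cidec were higher. Cidec was 1 of 5 tested fat cell markers. Of the others, Plin1 (0.76) and Fabp4 (0.11) lay above 0 and Adipoq (-0.60) and Cfd (-0.35) below it, none called. Fat cell markers summed to 70.4 to 85.4 CPM in LRWE mice, inside the 21.3 to 105 CPM of NC mice. Fibroblast Col3a1 and Dpt, smooth muscle Tagln, macrophage C1qc and the striated muscle marker Myh2 were lower. Myh2 was 1 of 7 tested striated muscle markers and had at most 2.77 CPM in any mouse. Without a call, Acta1 (0.95) and Ckm (0.41) lay above 0, and Tnnt3, Tnni2, Mylpf and Actn3 below it. Striated muscle markers summed to 33.8 to 49.1 CPM in LRWE and 30.0 to 44.2 CPM in NC mice, which overlap. Squamous markers summed to at most 13.2 CPM, and of the 6 markers of bladder, prostate and seminal vesicle, organs where Hoxb13 or Hoxd13 are also active, 3 were in the table and summed to at most 3.18 CPM. The part that these cell types and the sampled segment have in the Hox results was not tested, and segment and treatment cannot be told apart here.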

How the data were processed

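The deposited table held 9 columns of counts and 9 of FPKM, 1 pair for each of the 9 colon libraries, and all of them were mapped to a mouse by their names. The file headers name the FPKM columns without defining the unit, which is taken here as fragment numbers divided by transcript length and depth. The deposited count columns hold whole numbers, taken here as estimated counts since the submitters' processing notes name StringTie 1.3.4d, with cutadapt 1.9, HISAT2 2.0.4 and edgeR without a version. The build in the notes, hg38, is a human one while the identifiers are of mouse, so coordinates are those of the table and promoter sequences those of RefSeq (GRCm38.p6).

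From the counts, genes were kept by filterByExpr (21767 of 36256), scaled by TMM and fitted with 1 mean per group over all 9 libraries with edgeR 4.0.16 under R 4.3.3. Each comparison used the quasi-likelihood test with Benjamini-Hochberg adjustment over all tested genes and a threshold of 0.05. SE was the size of the log2 fold change over the root of F, with a median over all genes of 0.414 for LRWE and 0.415 for MC, each against NC, and of 0.413 for LRWE against MC. The steps were tested on simulated data. DESeq2 1.42.0 and limma 3.58.1 (on log2(FPKM + 1) and log2(FPKM + 0.1), for genes with FPKM of at least 0.1 in 3 libraries), other scalings and filters, the 2 groups alone, the replicate number as a block and leaving out each library were the alternatives. Folds against a group at 0 used a floor of 3 counts over the group, which covers counting error only, since reads carry no molecular identifiers.

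A fold change and test is given for each member called in a comparison, for paralogue 13, and for the 2 members of each cluster with the highest mean FPKM. The members and the gene lists were chosen with earlier results of these data known. Homeodomain sequences are not used here.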

Additional observations from a re-analysis of the deposited data

How the results depend on the processing

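For MC against NC, 9 members were called in the main setting. The count was 3 with a replicate block, 3 to 12 with 1 library left out, and 15 (12 higher, 3 lower) with LRWE mouse 2 and MC mouse 2 both left out, which was chosen after seeing the data. It was 3 without NC mouse 1, NC mouse 2 or NC mouse 3, 4 without MC mouse 1 or MC mouse 3, 6 without LRWE mouse 3 and 12 without MC mouse 2. For LRWE against MC the count was 0 with edgeR (7 at an unadjusted p under 0.05), 3 with DESeq2 and 0 to 6 with 1 library left out, the 6 without LRWE mouse 1. For LRWE against NC it was 10, 5 to 12 with 1 library left out (5 without NC mouse 1, NC mouse 2 or NC mouse 3, 6 without LRWE mouse 3), and 7 with the replicate block. The block lost the LRWE against NC calls of Hoxb13 (adjusted p = 0.0664), Hoxd8 (0.0537) and Hoxd12 (0.0655), and the MC against NC calls of Hoxb2, Hoxb6, Hoxb7, Hoxb8, Hoxd3 and Hoxd8 (0.0653 to 0.113). Over all genes, calls for MC against NC were 1386, against 306 with the block, 281 without NC mouse 1 and 3754 with DESeq2. They were 3301 of 22530 genes with LRWE mouse 2 and MC mouse 2 both left out. For LRWE against NC they were 2179, against 600 with the block and 459 to 2725 with 1 library left out. The replicate numbers share no animal or batch in the labels, and same-numbered mice did not deviate together (correlations of -0.162 to 0.0313).

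Differences that changed sign were all uncalled. For LRWE against MC with 1 library left out, Hoxb3 (-0.14) ran from -0.322 to 0.009, Hoxd8 (0.07) from -0.312 to 0.644 and Hoxd10 (-0.67) from -0.975 to 0.083. Hoxd8 was -0.08 with library totals and -0.145 without both LRWE mouse 2 and MC mouse 2, and Hoxc10 (0.78) was -0.069 without both. For LRWE against NC with 1 library left out, Hoxb2 (0.09) ran from -0.143 to 0.255 and Hoxc4 (-0.22) from -1.2 to 0.334, and Hoxc4 was 0.335 without both. The cause was not tested. Library totals in place of TMM moved the median of all genes by 0.15 for MC against NC and by -0.20 for LRWE against MC, and moved no count of called members by over 1.5 times. Counting paralogues 10 to 13 in place of 9 to 13 gave shares of 18.2%, 4.63% and 6.36% in LRWE mice, 14.5%, 40.3% and 21.1% in MC mice, and 77.6%, 78.3% and 68.7% in NC mice. Of 962 values for 51 results, 856 kept direction and call, 66 lost a call, 28 gained one and 12 changed sign. Hoxb1, Hoxc8, Hoxc9, Hoxc12 and Hoxd1 were not called in the setting with no filter.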
